A study of Mus musculus with 48 samples.

Results

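The clustered protocadherins are 3 neighbouring families of neuronal adhesion genes, alpha, beta and gamma, and they were taken here as every gene of the count table whose symbol begins with Pcdha, Pcdhb or Pcdhg followed by a member name. The rule found 59 genes among 48795, with 14 alpha, 22 beta and 23 gamma genes. Every member with an annotated position lies on the plus strand of chromosome 18 (GRCm38), alpha from 36930184 to 37187661, beta from 37264938 to 37524479 and gamma from 37661793 to 37841873. Reads were found for 58 of them and 57 passed the filter on low counts. The members that did not pass were the polymorphic pseudogene Pcdhgb8, with 184 reads over all libraries, and a second row of that symbol with 0 reads and no annotated position.

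The libraries came from the striatum of C57BL/6 mice aged 6 months, 24 female and 24 male, in 6 genotype groups. These were Q140 (n = 8), Q140 Msh3+/- (n = 8), Q140 Msh3-/- (n = 8), Msh3+/- (n = 9), Msh3-/- (n = 8) and wild type (n = 7). Q140 mice are heterozygous for a knock-in Htt allele with a long CAG repeat, a model of Huntington's disease, and the allele is present in all cells. Msh3 encodes a mismatch repair protein that binds small DNA loops, and the design asks how loss of 1 or both Msh3 copies bears on the effect of Q140. The design text gives 7 to 8 animals a group, whereas 9 libraries carry the label Msh3+/-.

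Clustered protocadherins are cell surface molecules that bind copies of themselves on other membranes, and a neuron's set of them lets its own branches recognise and avoid each other. In the alpha and gamma clusters each gene has its own large variable exon, which is spliced to small constant exons shared by the whole cluster. Beta genes stand alone, with a single coding exon and no shared constant part. Each neuron switches on a small, largely random choice of promoters through CTCF and cohesin, which bring a promoter to a distant enhancer. The C-type genes at the ends of the alpha and gamma clusters (Pcdhac1, Pcdhac2, Pcdhgc3, Pcdhgc4 and Pcdhgc5) are used more constitutively.

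Library totals ran from 33.7 to 52.8 M counts. Msh3 reads were higher in libraries labelled as Msh3 mutants, at 125 ± 6.60 CPM in Q140 Msh3-/-, 77.0 ± 3.14 CPM in Q140 Msh3+/- and 31.0 ± 1.46 CPM in wild type (SD; CPM is the count per 1 M counts of the scaled library). Directions along the Msh3 genotype therefore rest on the labels. Htt was at 192 ± 16.3 CPM in Q140 and 209 ± 3.15 CPM in wild type (SD). The medium spiny neuron markers, which define the main striatal neuron, were all detected, and their summed level was 8255 to 12310 CPM in Q140 libraries and 14140 to 15910 CPM in wild type libraries. Q140 Msh3+/- F1 stood apart in choroid plexus markers (4204 CPM summed) and Msh3+/- F5 in cortical neuron markers (163.5 CPM summed). Among wild type libraries M2 was high in choroid plexus markers (594.9 CPM), and without it the members called in Q140 against wild type were 26, as with it. Each library has a code of its own in the labels, but whether each code stands for a different mouse is not stated, so p-values measure the spread between libraries, which may be technical.

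How reads in shared exons were counted is not given in the sources used here. In the GENCODE M21 annotation, 4 genes that lie wholly within exons of members (Gm42416, Gm37013, Gm37388 and Gm38182) had 0 reads in all 48 libraries. Exon sequence shared with no other gene of the plus strand made up 8.6% to 61.1% of alpha genes, 90.3% to 100% of beta genes and 33.2% to 68.5% of gamma genes. Overlap with genes of the minus strand was not counted. Levels are therefore given both as CPM and, for comparing genes with each other, as CPM per kb of unshared exon. The gene listed as Pcdha11 under ENSMUSG00000007440 is Pcdha10 in RefSeq, and the gene listed as Pcdhga8 under ENSMUSG00000023036 is Pcdhgc4 in GENCODE M21, so these names are used here.

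Gamma genes had the highest levels per length in the striatum and alpha genes the lowest. The median member was at 7.97 CPM per kb in Q140 and 7.90 CPM per kb in wild type for gamma, at 2.64 and 2.45 CPM per kb in the same order of genotypes for beta, and at 0.791 and 0.646 CPM per kb for alpha. The C-type genes set the top of both variable clusters. Pcdhgc5, which in rodent neurons binds GABA-A receptors, reached 25.4 ± 2.33 CPM per kb in Q140 and 27.8 ± 2.41 CPM per kb in wild type (SD). Pcdhgc3, a C-type gene that promotes dendrite branching in mice, stood at 22.01 ± 1.95 CPM per kb in Q140 and 25.1 ± 1.42 CPM per kb in wild type. These neighbours in the order of levels lay close together, and both were above every other member.

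Among alpha genes Pcdhac2, needed in mice for the spacing of serotonergic axons, held 51.0% ± 2.64 of the alpha counts in Q140 and 54.3% ± 1.80 in wild type (SD). Its level per length was 9.41 ± 1.38 CPM per kb in Q140 and 9.84 ± 0.766 CPM per kb in wild type, and the next alpha gene, Pcdha12, was at 2.31 ± 0.461 and 2.50 ± 0.236 CPM per kb in these genotypes. The lowest tested members were Pcdha8, with 0.226 ± 0.140 CPM per kb in Q140 and 0.238 ± 0.101 CPM per kb in wild type, and Pcdhb1, with 0.255 ± 0.0451 and 0.298 ± 0.0632 CPM per kb. The C-type genes were not uniformly high, since Pcdhac1 stood at 0.595 ± 0.127 CPM per kb in Q140 and 0.710 ± 0.128 CPM per kb in wild type. The spread between libraries of a group was widest in the cluster with the lowest levels: the median coefficient of variation was 19.4% for alpha, 12.5% for beta and 10.6% for gamma genes. It was lowest for Pcdhgc3 at 5.96% and highest for Pcdha8 at 52.3%, a gene with only 5 to 62 reads a library.

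**Figure D1:**
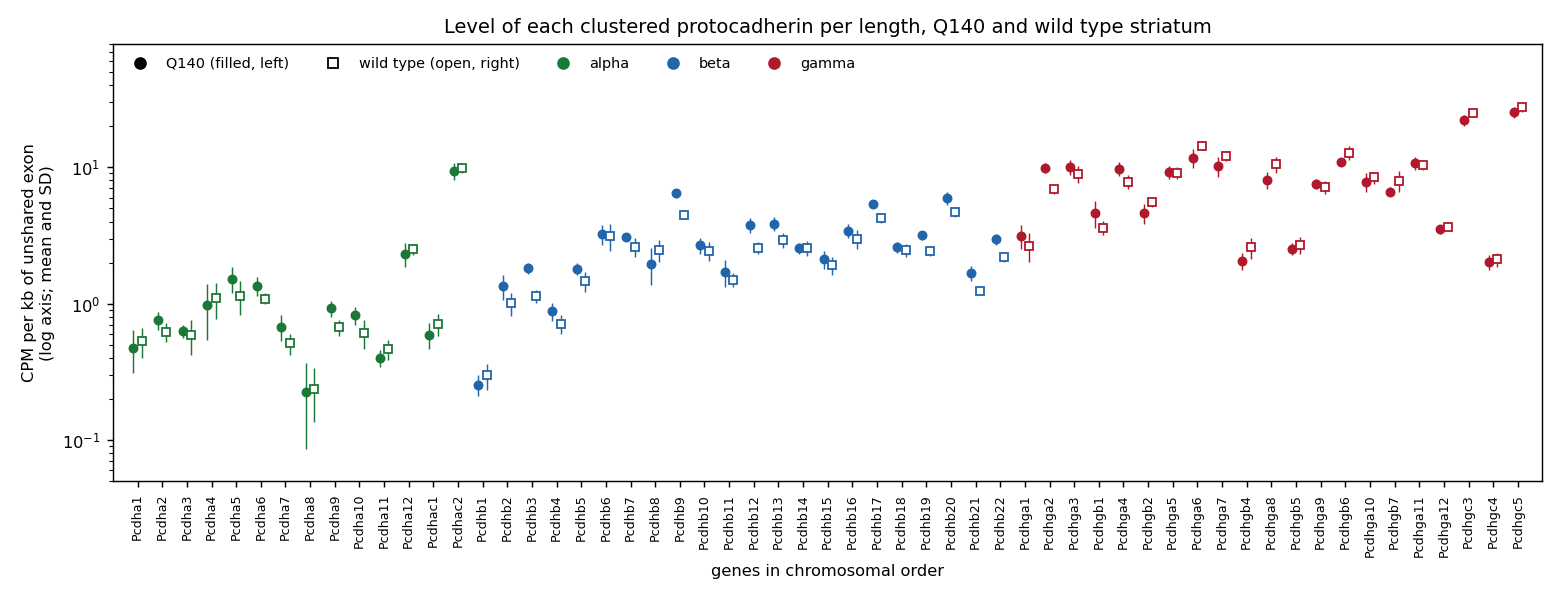
Mean level of the 57 tested genes per kb of unshared exon on a log axis, in chromosomal order, with SD over libraries (filled circles, Q140, n = 8; open squares, wild type, n = 7; colour marks the cluster). Pcdhgc5 and Pcdhgc3 are the highest genes, Pcdhac2 stands above the other alpha genes, and many beta genes are higher in Q140.

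The beta cluster was mostly higher in Q140 than in wild type striatum. Of 22 beta genes 12 rose and 1 fell at an adjusted p under 0.05 (edgeR quasi-likelihood test, Benjamini-Hochberg adjustment over 19975 genes; such genes are called), against 19.9% of all genes called, 9.64% higher and 10.2% lower. Their median log2 difference was 0.30, against 0.01 over all genes tested, and 19 of the 22 differences were positive. In 6 of them (Pcdhb3, Pcdhb9, Pcdhb12, Pcdhb19, Pcdhb21 and Pcdhb22) every Q140 library was above every wild type library, which was so for 1.68% of all genes.

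Pcdhb3 had the largest difference. Its lowest, median and highest levels were 6.16, 6.66 and 7.67 CPM in Q140 libraries, against 3.52, 4.22 and 5.09 CPM in wild type libraries. The ranges were well apart, and the fitted difference was 1.59-fold (log2 0.67 ± 0.08 SE, adjusted p = 3.2e-08). Pcdhb12 reached 9.63, 11.1 and 13.5 CPM in Q140, against 6.97, 7.84 and 8.80 CPM in wild type, also without overlap (log2 0.56 ± 0.09 SE, adjusted p = 1.08e-05). Like all beta genes, both encode a cadherin-type adhesion molecule that ends in a short tail of its own in place of the constant domain.

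Pcdhb9 is among the most abundant beta genes per length. Its levels were 16.45, 19.8 and 21.4 CPM in Q140 and 13.1, 13.9 and 14.3 CPM in wild type, and no library crossed over (log2 0.51 ± 0.06 SE, adjusted p = 4.75e-08). Pcdhb22, the last beta gene before the gamma cluster, gave 14.9, 18.4 and 20.4 CPM in Q140, against 11.9, 13.1 and 14.8 CPM in wild type. Here the lowest Q140 library and the highest wild type library nearly met, although the difference of log2 0.43 ± 0.05 (SE) had the smallest adjusted p of the beta genes at 3e-08. Its neighbour Pcdhb21 ranged from 5.69 to 8.07 CPM in Q140 and from 5.18 to 5.37 CPM in wild type, and Pcdhb19 from 20.3 to 25.6 CPM and from 15.95 to 19.1 CPM in these genotypes.

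The other beta genes that rose overlapped between the groups. Pcdhb17 was at 25.0 ± 1.62 CPM in Q140 and 19.9 ± 1.66 CPM in wild type (SD; adjusted p = 6.36e-06), Pcdhb20 at 21.1 ± 2.17 and 16.8 ± 1.39 CPM, and Pcdhb13 at 14.2 ± 1.68 and 10.8 ± 1.35 CPM in the same genotypes. Pcdhb2, Pcdhb5 and Pcdhb7 rose by log2 0.24 to 0.40. The beta gene that fell was Pcdhb8, with 4.20, 6.08 and 9.79 CPM as lowest, median and highest in Q140 and 6.53, 7.97 and 10.4 CPM in wild type (log2 -0.38 ± 0.13 SE, adjusted p = 0.0304). Its groups overlapped widely, and its call was lost in 7 of 15 alternative fits. Among these were scaling by library totals (adjusted p = 0.0645) and leaving sex out of the fit (adjusted p = 0.121). The call was also lost in 6 of the 48 fits that left out a library. Across the 22 beta genes the difference was unrelated to the wild type level per length (Spearman rho = 0.002, across genes of the same libraries).

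The gamma cluster changed in both directions, and the genes that rose and those that fell lay in different stretches of it. Of 21 tested gamma genes 3 rose and 8 fell, where 9.64% of all genes rose and 10.2% fell. The median log2 difference of the gamma genes was -0.10. The 5 genes that lie next to the beta cluster (Pcdhga1, Pcdhga2, Pcdhga3, Pcdhgb1 and Pcdhga4) all had positive differences, and 3 of them passed the test, Pcdhga2, Pcdhgb1 and Pcdhga4. All 8 that fell lie beyond them, from Pcdhgb2 to Pcdhgc3, where Pcdhga5, Pcdhga9 and Pcdhga11 had small positive differences of log2 0.01 to 0.07. This division of the cluster was drawn after the values were seen, and it was given no test.

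Pcdhga2 was the gamma gene with the clearest difference. Its levels were 22.8, 24.95 and 29.5 CPM (lowest, median, highest) in Q140 libraries and 15.8, 17.5 and 19.9 CPM in wild type libraries. These ranges did not meet, and the difference was 1.45-fold (log2 0.54 ± 0.07 SE, adjusted p = 3.04e-08). Pcdhgb1 rose to 12.1 ± 2.72 CPM in Q140, against 9.48 ± 1.18 CPM in wild type (SD; adjusted p = 0.0117), and Pcdhga4 to 15.2 ± 1.78 CPM, against 12.3 ± 1.45 CPM (adjusted p = 0.00245). The other genes of this stretch were at 10.2 ± 1.98 and 8.61 ± 2.06 CPM for Pcdhga1 (adjusted p = 0.106) and at 26.0 ± 3.15 and 23.2 ± 3.19 CPM for Pcdhga3 (adjusted p = 0.0988), Q140 before wild type.

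Among the gamma genes that fell, Pcdhga8 had the largest difference. It ranged from 16.3 to 25.0 CPM around a median of 21.4 CPM in Q140, and from 22.4 to 30.2 CPM around 27.8 CPM in wild type (log2 -0.37 ± 0.10 SE, adjusted p = 0.00366). Pcdhga6 was at 30.8 ± 4.95 CPM in Q140 and 37.7 ± 2.87 CPM in wild type, and Pcdhga7 at 31.7 ± 5.33 and 37.6 ± 3.42 CPM (SD). Pcdhgb2, Pcdhgb4, Pcdhgb6 and Pcdhgb7 fell by 0.23 to 0.33 on the log2 scale. None of the 8 had separate ranges, while 1.85% of all genes were lower without overlap.

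Of the C-type genes 1 fell. Pcdhgc3 had 60.8, 75.2 and 82.2 CPM in Q140 and 78.6, 83.7 and 91.4 CPM in wild type, a small difference with overlapping ranges (log2 -0.18 ± 0.05 SE, adjusted p = 0.00319). Pcdhgc5 stood at 117 ± 10.7 CPM in Q140 and 128 ± 11.1 CPM in wild type (adjusted p = 0.138). Pcdhgc4, which mouse interneurons need to survive, was at 7.04 ± 0.923 and 7.34 ± 0.829 CPM (adjusted p = 0.711). In the alpha cluster Pcdhac2 was at 28.5 ± 4.18 and 29.8 ± 2.32 CPM and Pcdhac1 at 1.52 ± 0.326 and 1.82 ± 0.328 CPM (SD), each with Q140 first, and neither was called (adjusted p = 0.619 and 0.175).

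The gamma losses depended on the scaling more than the beta gains did. With libraries scaled by their totals, 25 members were higher and 4 lower, against 17 and 9 with TMM scaling, and over all genes 5076 were higher and 1104 lower, against 1926 and 2043, with a median over all genes of log2 0.10 in place of 0.01. The beta cluster then had 14 higher genes and 0 lower, and the gamma cluster 5 higher and 4 lower, with a gamma median of log2 -0.02. Pcdhgb2, Pcdhgb6, Pcdhgb7 and Pcdhgc3 kept their sign but lost the call, with adjusted p from 0.0671 to 0.0910.

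The alpha cluster gave few calls. Of 14 genes 2 rose and 0 fell, where 9.64% of all genes rose and 10.2% fell. Of the differences 7 were positive and 7 negative, and the median was log2 0.03. Pcdha9 had 1.90, 2.20 and 2.72 CPM in Q140 and 1.37, 1.66 and 1.93 CPM in wild type (log2 0.49 ± 0.15 SE, adjusted p = 0.0154), ranges that touched only at their ends. Pcdha5 had 2.45, 3.65 and 4.84 CPM in Q140 and 1.74, 2.80 and 3.91 CPM in wild type, with wide overlap (log2 0.42 ± 0.14 SE, adjusted p = 0.0290). Both calls were lost with the plate column of the well address in the fit (adjusted p = 0.0608 for Pcdha9 and 0.0866 for Pcdha5). The alpha genes other than Pcdhac2 had medians of 21 to 266 reads a library, which limits the precision of their values.

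**Figure D2:**
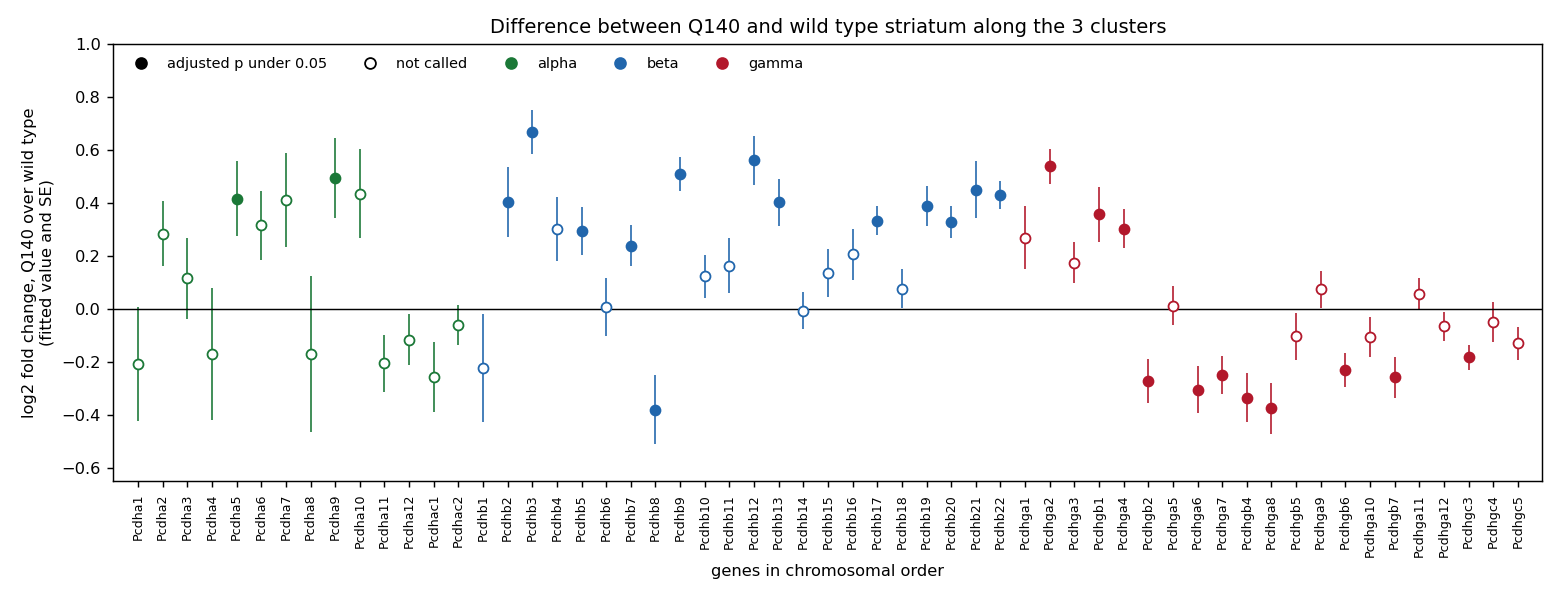
Log2 fold change of each tested gene in Q140 over wild type, in chromosomal order, with its SE (filled, adjusted p under 0.05; open, not called; colour marks the cluster). Positive differences fill most of the beta cluster and the first 5 gamma genes, and the 8 gamma genes that fell lie after them.

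Summed over the cluster, beta reads came to 233 to 292 CPM in Q140 libraries (265 ± 17.9, mean ± SD) and 202 to 249 CPM in wild type libraries (220 ± 16.8), which overlapped. The first 5 gamma genes gave 89.1 ± 9.03 CPM in Q140 and 71.3 ± 7.03 CPM in wild type. The other 13 gamma A and B genes gave 274 ± 23.3 and 306 ± 24.02 CPM, and the gamma C genes 198 ± 14.2 and 220 ± 13.5 CPM, Q140 before wild type. All 3 clusters together stood at 882 ± 51.0 CPM in Q140 and 872 ± 54.7 CPM in wild type, with alpha at 55.7 ± 6.85 and 54.8 ± 3.65 CPM. The sums in Q140 depended on the scaling: the gamma sum was 0.992 of wild type with libraries scaled by their totals and 0.940 with TMM scaling, the beta sum 1.28 and 1.21, and the sum of all 3 clusters 1.07 and 1.01.

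**Figure D3:**
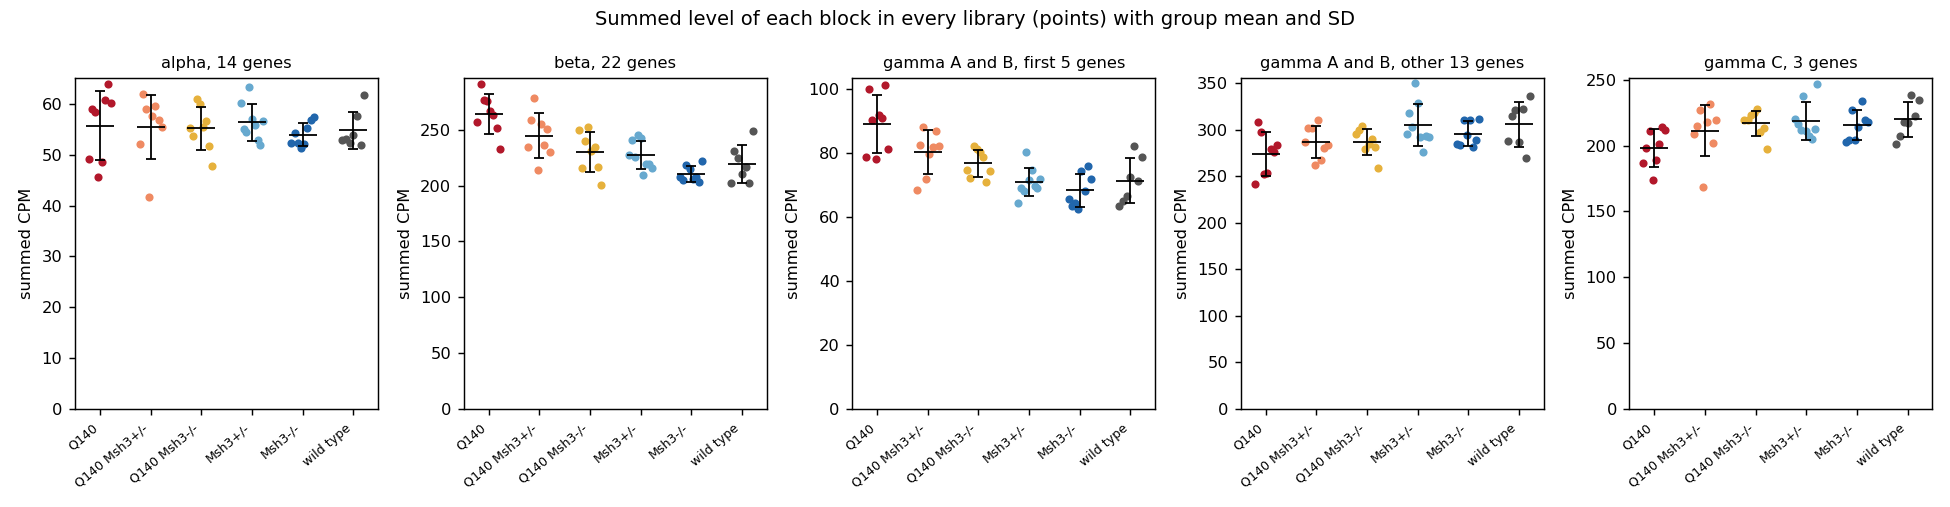
Summed CPM of the alpha and beta clusters and of 3 stretches of the gamma cluster in every library (points), with the mean and SD of each genotype group. Beta and the first 5 gamma genes are highest in Q140, the later gamma genes are lowest there, and the alpha means lie between 54.0 and 56.4 CPM.

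Other striatal genes moved beside these. All 10 medium spiny neuron markers fell in Q140 (median log2 -0.53), as did 3 of 8 astrocyte markers, whose summed level was 3343 to 4209 CPM in Q140 and 4496 to 4832 CPM in wild type, 4 of 7 endothelial and mural markers, 2 of 8 microglial, 2 of 7 interneuron, 1 of 8 oligodendrocyte, 1 of 5 oligodendrocyte precursor and 1 of 5 choroid plexus markers. In the cortical neuron list 1 of 6 rose, and its sum was 21.7 to 42.0 CPM in Q140 and 17.0 to 64.0 CPM in wild type. Of all genes tested, 10.2% fell and 9.64% rose in this comparison, and lists with a single call are to be read against these shares. No marker of any list was at 0 in a whole group. The part of these shifts in the protocadherin differences was not tested. In bulk tissue, fewer cells of a type and less RNA per cell cannot be told apart.

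Losing Msh3 without Q140 gave no call in any cluster. In Msh3-/- against wild type 0 of 57 members were called, where 0.03% of all genes were. There, 1 member had an unadjusted p under 0.05, as had 807 of the 19975 genes tested. In Msh3+/- against wild type 0 of 57 were called as well, where 0.01% of all genes were. Here 2 members had an unadjusted p under 0.05, as had 943 of the 19975 genes tested. DESeq2 also called 0 in both. Of the 22 beta differences from wild type, 18 were negative in Msh3-/- (median log2 -0.05) and 8 in Msh3+/- (median log2 0.03). Of the 21 gamma differences 18 were negative in Msh3-/- (median log2 -0.04) and 10 in Msh3+/- (median log2 0.01). Of the 14 alpha differences 9 were negative in Msh3-/- (median log2 -0.02) and 4 in Msh3+/- (median log2 0.04). Summed beta levels were 211 ± 6.995 CPM in Msh3-/-, 227 ± 12.9 CPM in Msh3+/- and 220 ± 16.8 CPM in wild type (SD).

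With Q140 present, part of the beta cluster was lower in Msh3-/-. In Q140 Msh3-/- against Q140, 8 of 22 beta genes fell and 0 rose, and all 22 differences were negative (median log2 -0.23), where 11.9% of all genes were called, 5.04% lower and 6.85% higher. They were Pcdhb3, Pcdhb5, Pcdhb7, Pcdhb9, Pcdhb12, Pcdhb17, Pcdhb20 and Pcdhb22. The Q140 libraries are the same as in the comparison with wild type, so the pair of comparisons is not independent. In the gamma cluster Pcdhga2 fell, and Pcdhgb7 and Pcdhgc3 rose, while 0 of 14 alpha genes were called and their smallest adjusted p was 0.0877.

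Pcdhb3 again had the largest difference. Its levels were 3.79, 4.80 and 5.21 CPM (lowest, median, highest) in Q140 Msh3-/- and 6.16, 6.66 and 7.67 CPM in Q140, which did not overlap (log2 -0.57 ± 0.08 SE, adjusted p = 1.83e-06). The ranges were separate in this direction for 0.511% of all genes. Pcdhb9 gave 12.6, 15.8 and 17.1 CPM in Q140 Msh3-/- and 16.45, 19.8 and 21.4 CPM in Q140 (log2 -0.35 ± 0.06 SE), and Pcdhga2 gave 16.6, 19.5 and 23.5 CPM and 22.8, 24.95 and 29.5 CPM (log2 -0.37 ± 0.06 SE), each with a small overlap. Pcdhb5 was at 5.25 ± 0.661 CPM in Q140 Msh3-/- and 6.40 ± 0.661 CPM in Q140 (SD). Pcdhb7 was at 8.35 ± 0.770 CPM in Q140 Msh3-/- and 10.9 ± 0.738 CPM in Q140 (SD).

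The gamma genes that rose did so by less. Pcdhgb7 was at 19.96 ± 1.91 CPM in Q140 Msh3-/- and 17.2 ± 1.27 CPM in Q140 (log2 0.22 ± 0.07 SE, adjusted p = 0.0480), and Pcdhgc3 at 82.7 ± 2.62 and 74.4 ± 6.58 CPM (log2 0.15 ± 0.04 SE, adjusted p = 0.0177). Without Q140 F4, a library low in Pcdhgc3, neither was called (adjusted p = 0.0913 for Pcdhgb7 and 0.0631 for Pcdhgc3), and Pcdhgb7 lost its call in 25 of the 48 fits that left out a library. With libraries scaled by their totals 17 members were lower and 0 higher, against 9 and 2 with TMM scaling. Over all genes 3463 were then lower and 804 higher, against 1006 and 1368. The median over all genes was log2 -0.07 in place of -0.01. The 10 medium spiny neuron markers all rose in this comparison (median log2 0.39), with 12110 to 14300 CPM summed in Q140 Msh3-/- and 8255 to 12310 CPM in Q140, and their part in it was not tested.

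The summed beta level was 245 ± 20.04 CPM in Q140 Msh3+/-, between 230 ± 18.2 CPM in Q140 Msh3-/- and 265 ± 17.9 CPM in Q140 (SD). In Q140 Msh3+/- against Q140, Pcdhb9 (log2 -0.23 ± 0.06 SE) and Pcdhga2 (log2 -0.25 ± 0.06 SE) were the only members called of 57, where 1.98% of all genes were and 0.696% were lower. In this comparison 6 of 10 medium spiny neuron markers (median log2 0.26) and 5 of 5 choroid plexus markers (median log2 3.18) rose. Neither Pcdhb9 nor Pcdhga2 was called without Q140 Msh3+/- F1 and Msh3+/- F5, with adjusted p of 0.113 and 0.0816, and leaving out single libraries gave 0 to 5 calls. Beta differences were negative for 20 of 22 genes (median log2 -0.12). In Q140 Msh3-/- against Q140 Msh3+/- 0 of 57 were called, where 0.015% of all genes were. There, 4 members had an unadjusted p under 0.05, as had 1173 of the 19975 genes tested.

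**Figure D4:**
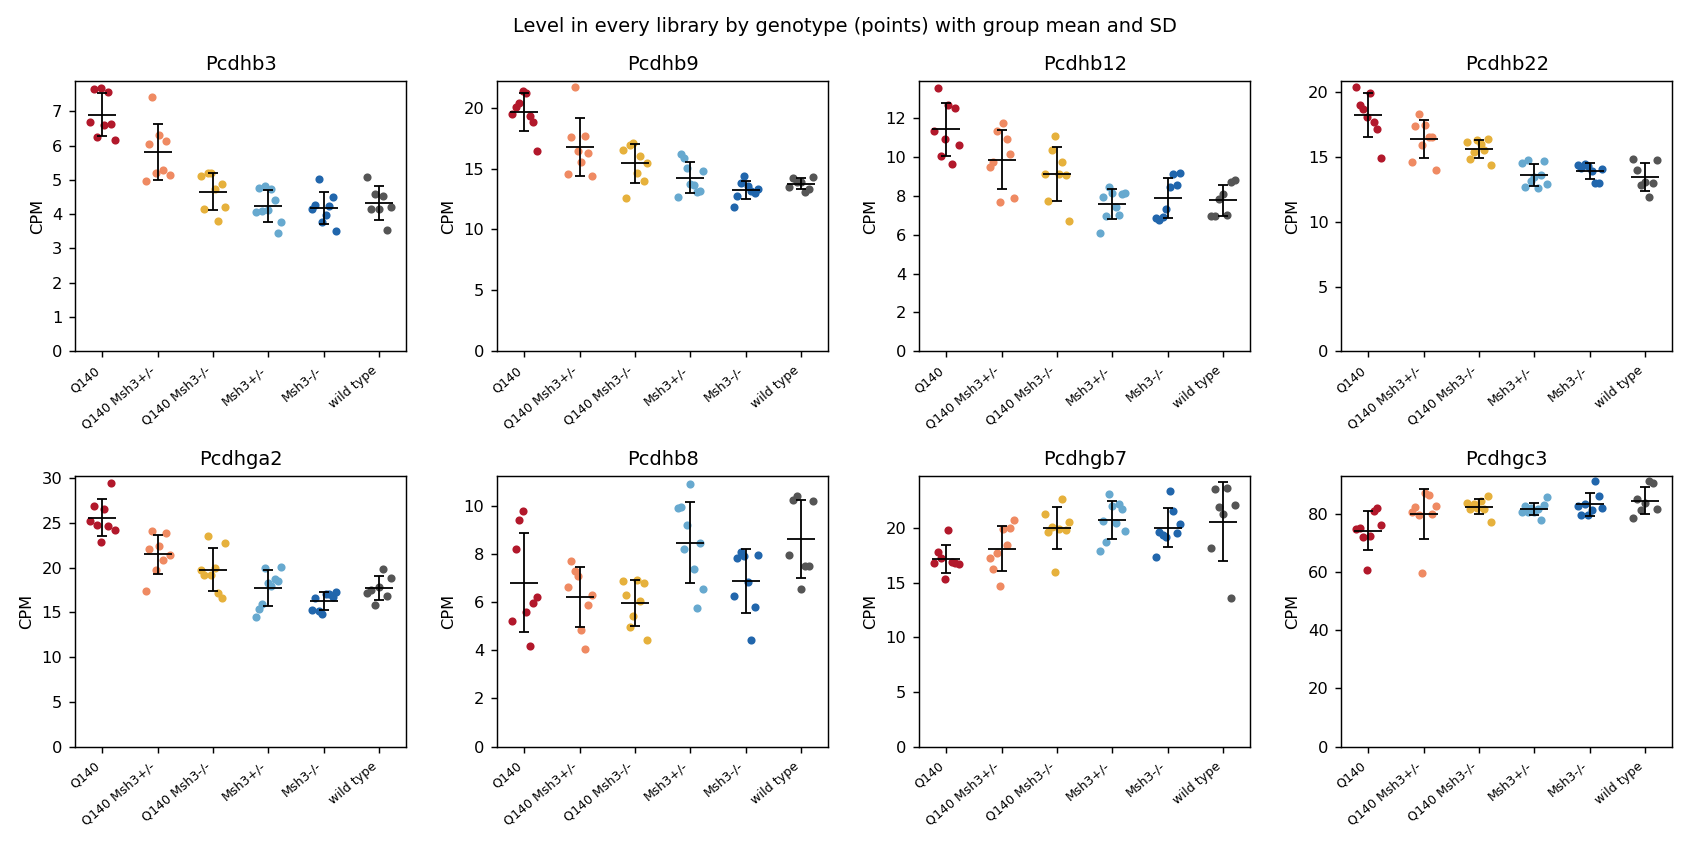
CPM of 8 genes in every library (points) by genotype group, with the group mean and SD. Pcdhb3, Pcdhb9, Pcdhb12, Pcdhb22 and Pcdhga2 are highest in Q140 and lower in Q140 Msh3+/- and Q140 Msh3-/-, while Pcdhb8, Pcdhgb7 and Pcdhgc3 are below wild type in Q140.

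In Q140 Msh3+/- against wild type 7 beta genes rose and Pcdhb8 fell, Pcdhga2 rose and 0 alpha genes were called, where 3.77% of all genes were called, 1.54% higher and 2.23% lower. Of the 10 medium spiny neuron markers 7 fell in this comparison (median log2 -0.31), and their part in it was not tested. Pcdhb3 was at 5.81 ± 0.819 CPM in Q140 Msh3+/- and 4.32 ± 0.484 CPM in wild type (log2 0.42 ± 0.08 SE), and Pcdhb22 at 16.3 ± 1.47 and 13.5 ± 1.07 CPM (log2 0.27 ± 0.05 SE). In Q140 Msh3-/- against wild type edgeR called 0 of 57, where 0.2% of all genes were called. There, 10 members had an unadjusted p under 0.05, as had 1656 of the 19975 genes tested. DESeq2 called 2 members, and the smallest adjusted p of edgeR was 0.0533 for Pcdhb8 (log2 -0.55 ± 0.13 SE). Pcdhb8 was at 5.97 ± 0.937 CPM in Q140 Msh3-/- and 8.64 ± 1.62 CPM in wild type, but at 6.885 ± 1.32 CPM in Msh3-/- without Q140 (SD). Its difference in Q140 Msh3-/- against Msh3-/- was log2 -0.19, which was not called. Pcdhb3 was at 4.66 ± 0.543 CPM in Q140 Msh3-/-, close to the 4.32 ± 0.484 CPM of wild type (SD, log2 0.10 ± 0.08 SE).

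The effect of Q140 was next compared across the Msh3 genotypes, each within its own controls, so that these comparisons share no libraries. In Q140 Msh3+/- against Msh3+/- 6 beta genes rose and 1 fell, and 2 gamma genes rose, where 6.45% of all genes were called, 2.96% higher and 3.49% lower. Of the 10 medium spiny neuron markers 9 fell here (median log2 -0.35), with 11150 to 13440 CPM summed in Q140 Msh3+/- and 14420 to 17000 CPM in Msh3+/-. All 5 choroid plexus markers rose (median log2 3.12), with 11.4 to 4204 CPM summed in Q140 Msh3+/-, highest in F1, and 5.31 to 61.1 CPM in Msh3+/-. Without Q140 Msh3+/- F1 and Msh3+/- F5 the same comparison called 8 members, all higher. The part of these markers in the member differences was not tested. The beta genes that rose were Pcdhb3, Pcdhb9, Pcdhb12, Pcdhb13, Pcdhb20 and Pcdhb22, and the gamma genes Pcdhga2 and Pcdhgb1. Pcdhb8 fell here too (log2 -0.43 ± 0.12 SE, adjusted p = 0.0240), but not once Q140 Msh3+/- F1 and Msh3+/- F5 were left out (adjusted p = 0.0780). Pcdhb3 ranged from 4.98 to 7.40 CPM in Q140 Msh3+/- and from 3.45 to 4.81 CPM in Msh3+/-, without overlap (log2 0.46 ± 0.08 SE, adjusted p = 8.26e-05), and 0.185% of all genes were higher in this way.

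In Q140 Msh3-/- against Msh3-/- edgeR called 0 of 57 members, where 0.0751% of all genes were called. In this comparison 14 members had an unadjusted p under 0.05, as had 1342 of the 19975 genes tested, and DESeq2 called 1 member. Pcdhga2 came nearest to a call, with 16.6 to 23.5 CPM in Q140 Msh3-/- and 14.8 to 17.3 CPM in Msh3-/- (log2 0.29 ± 0.06 SE, adjusted p = 0.0554). Pcdhb19 was at 20.9 ± 3.18 CPM in Q140 Msh3-/- and 17.2 ± 1.31 CPM in Msh3-/- (adjusted p = 0.197).

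The order of the Q140 differences was alike, though not the same, on the 3 Msh3 backgrounds. The log2 differences of Q140 against wild type and of Q140 Msh3+/- against Msh3+/- had a Spearman rho of 0.85 across 57 genes, and those of Q140 against wild type and of Q140 Msh3-/- against Msh3-/- one of 0.76. These genes share 1 locus and neighbouring promoters, so they are not independent points. Of the 17 members that rose in Q140, 16 had the same sign with Msh3+/- and 17 with Msh3-/-, and of the 9 that fell, 9 had it in each. Their size was smaller: the median of those that rose was log2 0.40 without Msh3 mutation, 0.21 with Msh3+/- and 0.17 with Msh3-/-, and of those that fell log2 -0.27, -0.15 and -0.09. The members were picked by the first comparison, and such a choice alone raises its medians over those of the others.

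**Figure D5:**
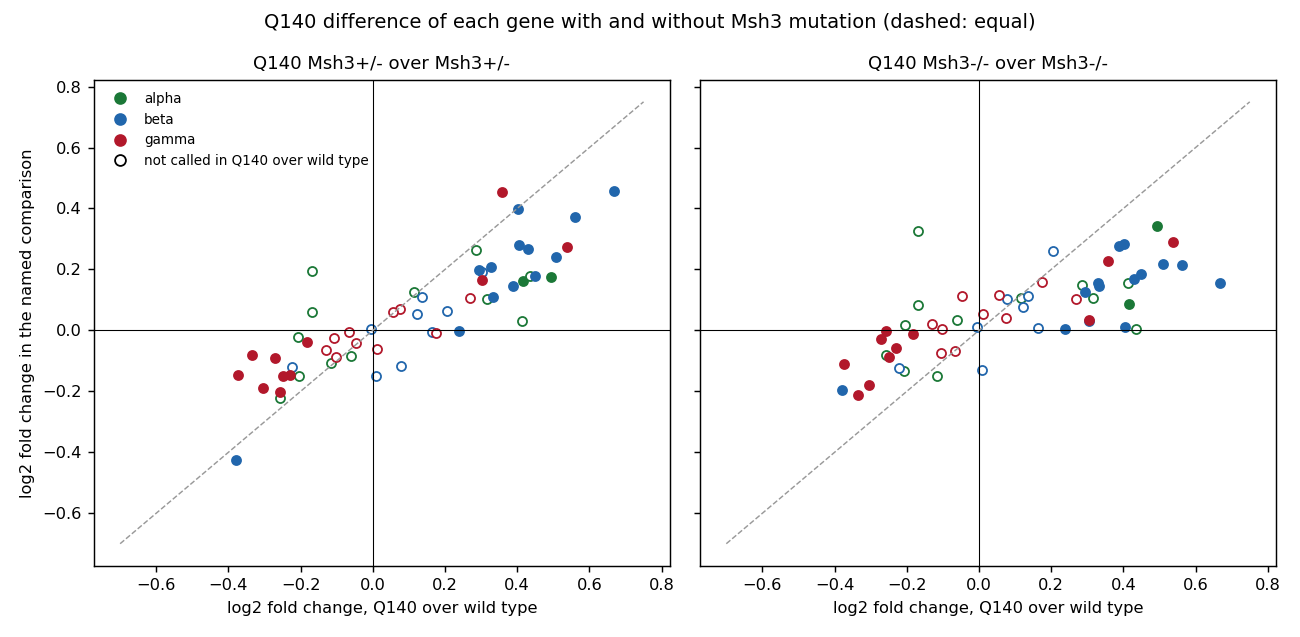
Log2 fold change of each of the 57 genes in Q140 Msh3+/- over Msh3+/- (left) and Q140 Msh3-/- over Msh3-/- (right), against that in Q140 over wild type. Points lie mainly at the lower left and upper right, mostly nearer to 0 than the dashed line of equal change.

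Whether the Q140 effect itself depended on Msh3 was tested with the interaction term. With Msh3-/-, 2 members passed, where 2.39% of all genes were called and 0.721% were lower. The Q140 difference of Pcdhb3 was smaller by log2 0.51 (interaction -0.51 ± 0.12 SE, adjusted p = 0.00948), at log2 0.15 ± 0.08 with Msh3-/- and 0.67 ± 0.08 without it. That of Pcdhb22 was smaller as well (interaction -0.26 ± 0.07 SE, adjusted p = 0.0419), at log2 0.17 ± 0.05 and 0.43 ± 0.05. The Pcdhb22 call was lost in 17 of the 48 fits that left out a library and with the plate row in the fit (adjusted p = 0.341). For the other 55 members a difference between Msh3 genotypes was not shown. With Msh3+/- the interaction called 0 members and 0.0% of all genes, and DESeq2 also called 0 members. An unadjusted p under 0.05 was found for 7 members and for 1621 of the 19975 genes tested.

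Genes known to act on the clusters were read against the 19.9% of all genes called in Q140 against wild type, 9.64% higher and 10.2% lower. Of 11 genes of cohesin and CTCF, which loop the promoters, 1 fell in Q140 against wild type, Ctcf at 78.05 ± 2.25 CPM in Q140 and 83.3 ± 4.09 CPM in wild type (log2 -0.09 ± 0.03 SE, adjusted p = 0.0154). Of 9 silencing genes 1 rose and 1 fell. The gene that rose was Wiz, a zinc finger partner of the histone methyltransferases EHMT1 and EHMT2, at 64.0 ± 2.25 CPM in Q140 and 53.6 ± 3.21 CPM in wild type (log2 0.26 ± 0.04 SE, adjusted p = 5.14e-07). Its lowest Q140 library, 60.7 CPM, was above the highest wild type library, 59.0 CPM. In Q140 Msh3-/- it stood at 56.1 ± 2.33 CPM, and its interaction with Msh3-/- was log2 -0.19 ± 0.05 (SE, adjusted p = 0.0297). Dnmt3a, a DNA methyltransferase, was the gene that fell (log2 -0.16 ± 0.05 SE, adjusted p = 0.0138).

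Among 14 genes for binding partners and proteases of protocadherins, 2 rose and 6 fell in Q140, where 9.64% of all genes rose and 10.2% fell. Those that fell include Cyfip2 and Nckap1, subunits of the WAVE complex that the C-terminal tails of some protocadherins bind. Cyfip2 was at 1022 ± 121 CPM in Q140 and 1325 ± 104 CPM in wild type, and Nckap1 at 492 ± 39.0 and 613 ± 28.7 CPM (SD). Marcks, a membrane protein that gamma protocadherins act on through protein kinase C, rose to 148 ± 11.4 CPM in Q140, against 116 ± 13.7 CPM in wild type. In Q140 Msh3-/- against Q140, 5 of the 14 rose and 1 fell, where 6.85% of all genes rose and 5.04% fell.

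Protocadherins outside the clusters, each with a promoter of its own, gave 3 rises and 1 fall among 12 genes in Q140. Of all genes 19.9% were called there, 9.64% higher and 10.2% lower. Pcdh20 was at 12.85 ± 1.51 CPM in Q140 and 8.09 ± 1.13 CPM in wild type, and Pcdh19, mutated in a form of epilepsy, at 23.4 ± 3.05 and 16.3 ± 3.44 CPM (SD). Pcdh10 rose as well, and Pcdh7 fell. Of the 15 genes that flank or lie between the clusters 14 were tested. In Q140 5 of them rose and 0 fell, against the same 9.64% of all genes higher and 10.2% lower. The differences were small: Hdac3, a histone deacetylase gene beyond the gamma cluster, was at 73.7 ± 1.18 CPM in Q140 and 66.2 ± 2.78 CPM in wild type (log2 0.16 ± 0.03 SE, adjusted p = 3.27e-05), and Tmco6, Hars, Hars2 and Fchsd1 rose by log2 0.12 to 0.18. The median of the flanking genes was log2 0.07, against 0.30 in the beta cluster.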

How the data were processed

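The authors deposited whole-number read counts per gene for 48 libraries, with no scaling. They also deposited FPKM values, in which each count is divided by a fixed gene length and by the library total. Per the submitters' processing notes, STAR 2.7.5c, SAMtools 1.10 and HTSeq 0.12.3 were used with GRCm38 and mm10; the annotation release, strand setting and handling of reads in shared exons are not given in the sources used here. The lengths behind the FPKM of the 58 members with reads equal their exon lengths in GENCODE M21, which gave coordinates and unshared exon lengths.

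Counts were fitted with edgeR 4.0.16 (R 4.3.3): filterByExpr by group (minimum count 10, minimum total 15), TMM scaling, glmQLFit with robust estimation on group means and sex over all 48 libraries, and two-sided glmQLFTest contrasts for 10 group comparisons and 2 interactions. The Benjamini-Hochberg adjustment covered the 19975 genes tested, with a threshold of 0.05; a gene past it is called, and is said to rise or fall. CPM use TMM-scaled totals. The pipeline was tested on simulated data. Members and gene lists were chosen with earlier results of these data known. Full values are given for members called in Q140 against wild type, Q140 Msh3-/- against Q140 or the interaction with Msh3-/- (up to 12 each by smallest adjusted p), for C-type genes, and for the highest and lowest gene of each cluster; from each gene list up to 4 called genes a comparison are given, and other genes were named where a count or a position needed them. No 2 libraries were duplicates (highest correlation of log2 CPM 0.994).

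Alternatives were RLE size factors, library totals, no sex term, no filter, a filter of 1 CPM in 24 libraries (stricter), a replicate block, plate row or column of the well address, only the groups compared, limma 3.58.1 on log2 FPKM (offsets 0.1 and 1; at least 0.5 FPKM in 7 libraries, or no filter) and with the stem of the library's code in the labels as a random block, DESeq2 1.42.0, each library left out in turn and, added after the data were seen, Q140 Msh3+/- F1 and Msh3+/- F5 left out together.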

Additional observations from a re-analysis of the deposited data

Results flagged for a closer look

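Among 132 sets of values screened (the fully described genes and the cluster sums in each group), 12 held a library far from the others of its group. Chance flags about 5% of such sets. Q140 Msh3+/- F4 accounts for 4 of them, being lowest of its group in Pcdhac2 (20.2 CPM, the others from 27.5 CPM), Pcdhgc3 (59.9 CPM, the others from 79.6 CPM), Pcdhgc4 (4.93 CPM, the others from 6.91 CPM) and the summed gamma level (502 CPM, the others from 564 CPM). Q140 F4 was lowest in Pcdhgc3 (60.8 CPM, the others from 72.1 CPM), and wild type M2 highest in Pcdhgc4 (9.03 CPM, the others up to 7.67 CPM).

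The other flags were single beta or gamma genes. High libraries were Q140 Msh3-/- F3 in Pcdhb7 (9.97 CPM, the others up to 8.57 CPM), Q140 Msh3+/- F3 in Pcdhb9 (21.7 CPM, the others up to 17.7 CPM), Msh3-/- M4 in Pcdhb13 (12.4 CPM, the others up to 10.3 CPM) and Msh3+/- F5, the library high in cortical neuron markers, in Pcdhb20 (19.98 CPM, the others up to 17.6 CPM). Low libraries were Q140 M4 in Pcdhb17 (21.3 CPM, the others from 24.4 CPM) and Q140 Msh3-/- F4 in Pcdhgb7 (15.9 CPM, the others from 19.6 CPM).

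The Q140 effect differed between Msh3 genotypes, by the interaction test, for Pcdhb3 (log2 -0.51) and Pcdhb22 (log2 -0.26), both smaller with Msh3-/- than with wild type Msh3. The Pcdhb3 call was kept in all 48 fits that left out a library, whereas the Pcdhb22 call was lost in 17 of them. Pcdhb22 also lost its call with the plate row in the fit (adjusted p = 0.341) and with no filter (adjusted p = 0.0676).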

How the results depend on the processing

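The 26 members called in Q140 against wild type were 23 to 27 when each library was left out, and no direction reversed under any alternative. Over all comparisons, 804 of the results for single called genes kept their call in the 15 other alternatives and 79 lost it. Leaving out each library kept 2725 and lost 107. With libraries scaled by their totals the counts became 14 for Q140 Msh3+/- against wild type (from 9), 5 for Q140 Msh3+/- against Q140 (from 2), 17 for Q140 Msh3-/- against Q140 (from 11; also 17 with unfiltered log2 FPKM), 1 for Q140 Msh3-/- against Msh3-/- (from 0) and 5 for the interaction with Msh3-/- (from 2). That interaction gave 6 and 7 with log2 FPKM and offsets of 0.1 and 1, and 1 with no filter or with the plate row. Q140 Msh3+/- against Q140 gave 5 with either FPKM offset, 4 with DESeq2, 1 with no filter, and 0 with the plate column, with only the groups compared or without Q140 Msh3+/- F1 and Msh3+/- F5. Q140 Msh3-/- against wild type (0) gave 1 with the stricter filter, the plate row or the random block, and 2 with DESeq2. Q140 Msh3-/- against Msh3-/- gave 1 with the stricter filter, DESeq2 or without those 2 libraries. The cause of these moves was not tested.

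Leaving out each library gave 6 to 11 for Q140 Msh3+/- against wild type, 0 to 1 for Q140 Msh3-/- against wild type, 0 to 5 for Q140 Msh3+/- against Q140, 9 to 14 for Q140 Msh3-/- against Q140, 8 to 10 for Q140 Msh3+/- against Msh3+/-, 0 to 1 for Q140 Msh3-/- against Msh3-/- and 1 to 3 for the interaction with Msh3-/-. In Q140 Msh3+/- against Q140 the count was 5 without Q140 M4 and 0 without Q140 F1, F2 or M1 or Q140 Msh3+/- F1 or M4. The interaction count was 1 without Q140 F1, F2 or M1, Q140 Msh3-/- F2, F3, M2 or M4, Msh3-/- F2, F3, F4, M1 or M4, or wild type F3, M1 or M2.

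Same-numbered libraries of different groups did not deviate together (median correlation -0.01 over 115 pairs, 18 above 0.1). Differently numbered libraries of the same sex had a median of 2.6e-05 over 364 pairs, 50 above 0.1. With a replicate block the count for Q140 Msh3-/- against wild type was 1, in place of 0, and 13 in place of 11 for Q140 Msh3-/- against Q140.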
